A study of Caenorhabditis elegans with 18 samples.

Results

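The astacin metalloprotease genes of *Caenorhabditis elegans* were followed through 18 RNA-seq libraries, made from the poly(A) RNA of whole L4 larvae in synchronized cultures. The members are the genes whose symbol is *nas-* followed by a number, together with *dpy-31* and *hch-1*, and 40 of the 46726 genes counted met this rule. The symbols of 39 came from the Ensembl name table, and *nas-40*, a pseudogene, was named from RefSeq at an identical WBcel235 position. The symbol *nas-2* belongs to 2 identifiers, WBGene00003521 and WBGene00021221, which both span 1743 bases of chromosome V and had 0 counts in every library. Reads that fit more than 1 position were assigned to no gene, so the level of *nas-2* is uncertain.

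The genotypes, with 3 libraries each lettered A, B and C, were wild type (labelled N2), 3 single mutants (*fust-1*, *tdp-1* and *ceh-14*) and a pair of double mutants. The double mutants combine the loss of *ceh-14* with that of either RNA-binding protein gene (*tdp-1; ceh-14*, then *fust-1; ceh-14*). *ceh-14* encodes a LIM homeodomain transcription factor, and *fust-1* and *tdp-1* encode RNA-binding proteins. The strains of the study carry *ceh-14(ch3)*, *fust-1(csb21)* and *tdp-1(csb38)*, all deletions, and the latter pair were marked with GFP driven by the *myo-2* and *myo-3* promoters. The sample labels name the mutated genes and not the alleles. The comparisons ask which RNAs change when a transcription factor, an RNA-binding protein or both are lost.

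Astacins are secreted or membrane-bound zinc metalloproteases that share a zinc-binding motif and are named after a digestive enzyme of the crayfish. Nematodes carry an expanded family, and several members act on cuticle, the collagen-rich coat that a larva replaces at each molt. NAS-36 and NAS-37 are needed to shed the old cuticle, DPY-31 is a procollagen C-proteinase that acts on the collagen SQT-3, and NAS-38 is an epidermal protease linked to the sleep that accompanies molting. NAS-6 and NAS-7 act in the pharynx, where the cuticle forms the grinder that breaks up food, and HCH-1 is the hatching enzyme of the embryo. NAS-1 to NAS-5 have the short architecture of crayfish astacin, whose digestive role is known from the crayfish.

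Libraries held 19556372 to 119814176 counts in genes, with a median of 50634860. *fust-1* RNA stood at 35.5 to 52.0 CPM (counts per 1000000 of the TMM-scaled library size) in the 6 libraries of its mutants and at 144 or more in the others. *tdp-1* RNA stood at 13.8 to 22.9 CPM in its mutants against 85.0 or more. *ceh-14* RNA stood at 0.664 to 2.47 CPM in its mutants, while replicate C of *fust-1* had 2.67 CPM against 6.82 and 6.93 CPM in replicates A and B. No library contradicted its label, and with or without this replicate no astacin was called in *fust-1* against wild type. All 6 A libraries had more *myo-2*, a pharyngeal muscle myosin (86.6 to 134 CPM), than any B or C library (4.62 to 35.9 CPM), so results are also given with the letter as a block where that changes a call. Fewer cells of a type and less RNA per cell cannot be told apart in whole animals.

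Most astacin RNA at L4 came from a handful of genes. Of the 40 members, 21 had a mean of 1 CPM or more, 6 had 10 or more and 8 were under 0.1, while 32 had counts in all 18 libraries. Per kilobase of exon, the highest mean levels over all libraries were those of *nas-20* (45.0 CPM per kb), *nas-11* (43.4), *nas-37* (22.6), *dpy-31* (15.7), *nas-9* (14.7) and *nas-7* (7.77). The 5 members with the highest CPM (*nas-11*, *nas-37*, *nas-20*, *dpy-31* and *nas-9*) took 68.6% to 89.1% of the family's CPM, with the lowest share in replicate A of *tdp-1* and the highest in replicate C of *fust-1*. The family as a whole summed to 245 to 252 CPM in the *fust-1; ceh-14* libraries and to 341 to 372 CPM in the *tdp-1* libraries, and the other genotypes covered 249.7 to 365 CPM.

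**Figure D1:**
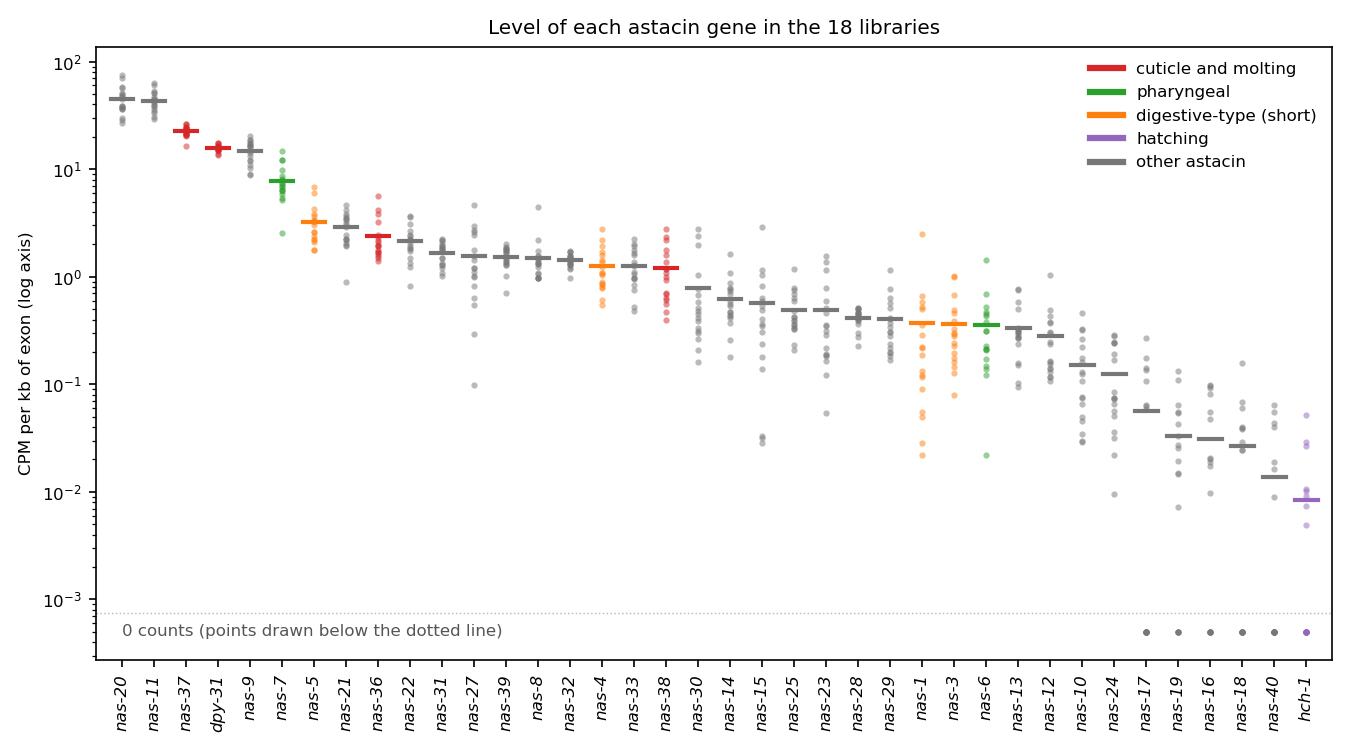
Mean level and single libraries of the 38 astacin genes with counts, in CPM per kb of exon on a log axis, ordered by mean. Each point is 1 of 18 libraries, bars are means, colours mark the roles given in the key, and points below the dotted line had 0 counts; *nas-20* and *nas-11* stand at 45.0 and 43.4 CPM per kb and *hch-1* is last.

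The genes are spread unevenly over the WBcel235 assembly, with 15 of 40 on chromosome V, 9 on X and 3 to 5 on each of the others. Neighbours on chromosome V were alike in level in some cases and not in others. *nas-20* (V:11470925-11472309) lies 254 bases from the divergent *nas-21* and had a mean of 44.98 CPM per kb, against 2.87 CPM per kb for *nas-21* and 2.15 CPM per kb for the next gene, *nas-22*. The row of *nas-16*, *nas-18*, *nas-17* and *nas-19* (V:11392320-11402710) was nearly silent, with no library above 0.370 CPM in any of the 4. *nas-17* had counts in all 6 A libraries, in 2 C libraries and in no B library, where 3 counts would be 0.0250 CPM in the deepest library of the series and 0.153 CPM in the shallowest.

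The cuticle and molting members fell into a steady pair and a variable pair. *nas-37* (X:9944844-9949063) was abundant in every library. It had 66.2, 53.9 and 60.99 CPM in wild type (replicates A, B, C), 55.3, 56.8 and 64.6 for *fust-1*, 51.8, 41.4 and 61.4 for *tdp-1*, 61.6, 67.1 and 58.6 for *ceh-14*, 57.2, 54.99 and 52.5 for *tdp-1; ceh-14*, and finally 53.1, 54.4 and 60.8 for *fust-1; ceh-14*. The genotype means lay within a ratio of 1.21, and replicate B of *tdp-1* was the lowest library. *dpy-31* (III:7202206-7207664) was steadier still. Its mean was 35.1 ± 1.76 CPM (SD, n = 3 for each genotype) in wild type, 31.8 ± 2.997 for *fust-1*, 33.5 ± 0.856 for *tdp-1*, 33.3 ± 2.801 for *ceh-14*, 30.6 ± 1.85 for *tdp-1; ceh-14*, and finally 31.9 ± 0.400 for *fust-1; ceh-14*. Neither gene was called in any of the 11 comparisons.

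*nas-36* (I:7527224-7531715) was highest in *tdp-1*. It had 5.55, 7.28 and 3.15 CPM in wild type, 3.86, 5.24 and 4.04 for *fust-1*, 12.6, 9.46 and 8.59 for *tdp-1*, 4.39, 3.66 and 3.55 for *ceh-14*, 4.43, 4.81 and 4.40 for *tdp-1; ceh-14*, and finally 3.39, 3.81 and 4.95 for *fust-1; ceh-14*. All 3 *tdp-1* libraries lay above the other 15, and *tdp-1; ceh-14* lay within the range of wild type. *nas-38* (X:558157-563708) had 3.18, 6.40 and 2.27 CPM in wild type, 1.39, 3.67 and 1.28 for *fust-1*, 5.02, 5.37 and 4.08 for *tdp-1*, 1.59, 2.70 and 2.49 for *ceh-14*, 2.13, 2.72 and 1.46 for *tdp-1; ceh-14*, and finally 0.913, 1.07 and 1.62 for *fust-1; ceh-14*. For this gene replicate B of wild type was the highest of all libraries, so wild type and *tdp-1* overlapped, while all *fust-1; ceh-14* libraries lay below wild type.

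The pharyngeal pair differed in level, with means of 7.77 CPM per kb for *nas-7* and 0.358 CPM per kb for *nas-6*. *nas-7* (II:7400545-7402725) had 9.87, 13.3 and 9.92 CPM in wild type, 3.45, 10.9 and 6.94 for *fust-1*, 16.4, 19.8 and 16.2 for *tdp-1*, 7.26, 9.36 and 11.6 for *ceh-14*, 8.63, 10.7 and 8.68 for *tdp-1; ceh-14*, and finally 8.39, 9.10 and 7.89 for *fust-1; ceh-14*. The *tdp-1* libraries were again above the other 15. *nas-6* was low, with 0.685, 0.765 and 0.310 CPM in wild type, 2.07, 1.01 and 0.309 for *tdp-1* and 0.460, 0.634 and 0.217 in *tdp-1; ceh-14*, and its *tdp-1* libraries overlapped those of both. The 11 pharynx markers, whose sum includes *myo-2*, summed to 88.7 to 396 CPM in wild type, 86.6 to 413 for *tdp-1* and 117 to 303 in *tdp-1; ceh-14*. Between the double mutant and *tdp-1*, 7 of them had a negative log2 fold change, with a median of -0.53 beside 0.02 over all genes. None was called (edgeR adjusted p under 0.05) without a block for the replicate letter, where 2.83% of all genes were called lower. With the block 2 of these markers were called lower (5.37% of all genes). Their part in the level of *nas-7* was not tested.

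Of the digestive-type members, *nas-5* and *nas-4* were the most abundant per kilobase. *nas-4*, which shares 437 exon bases with *C05D11.5* on its own strand, stood at 3.19, 4.50 and 2.43 CPM in wild type, at 6.42, 5.09 and 3.94 for *tdp-1*, at 1.87, 1.40 and 1.97 in *fust-1; ceh-14* and at 2.88, 2.51 and 2.06 in *tdp-1; ceh-14*. Its *tdp-1* libraries overlapped wild type and lay above *tdp-1; ceh-14*. *nas-5* had means of 3.75 ± 1.27 CPM in wild type, 6.26 ± 2.17 for *tdp-1* and 3.42 ± 0.724 in *tdp-1; ceh-14*. *nas-1* reached 2.90 CPM in replicate A of *tdp-1* and did not exceed 0.775 CPM in any other library. *nas-3* went the other way, with its lowest mean in *tdp-1* (0.185 ± 0.0910 CPM) and its highest in *fust-1; ceh-14* (0.775 ± 0.348 CPM).

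Outside these groups, *nas-30* (I:938483-947710) had one of the widest ranges between genotypes. It had 1.70, 3.06 and 1.14 CPM in wild type, 0.881, 1.32 and 0.470 for *fust-1*, 8.26, 7.03 and 5.87 for *tdp-1*, 1.51, 1.42 and 1.21 for *ceh-14*, 2.28, 1.996 and 0.982 for *tdp-1; ceh-14*, and finally 0.609, 0.769 and 0.925 for *fust-1; ceh-14*. The mean of *tdp-1* was 9.19 times that of *fust-1; ceh-14*, and no *tdp-1* library overlapped any other genotype. *nas-23* (II:7491267-7493699) had the same order of groups at the top, with 1.11, 1.47 and 0.362 CPM in wild type, 2.91, 2.55 and 2.16 for *tdp-1* and 0.533, 0.861 and 0.592 in *tdp-1; ceh-14*. *nas-10* (X:10960914-10963503) rested on few reads, with 15, 14 and 6 counts (0.132, 0.396 and 0.310 CPM) in wild type, 32, 29 and 29 counts (0.572, 0.812 and 0.560 CPM) in *tdp-1* and 9, 20 and 8 counts (0.218, 0.189 and 0.115 CPM) in *tdp-1; ceh-14*. These *tdp-1* libraries lay above those of the other 5 genotypes. *nas-27* stood at 1.94, 1.64 and 0.878 CPM in wild type, at 7.58, 2.88 and 4.42 for *tdp-1*, at 0.159, 1.32 and 0.470 in *fust-1* and at 2.30, 1.61 and 4.79 in *fust-1; ceh-14*.

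The most abundant members were mixed. *nas-11* stood at 75.3 to 91.3 CPM in *tdp-1* against 61.7 to 71.4 CPM in wild type. *nas-9* stood at 31.5 to 36.7 CPM in *tdp-1* against 18.5 to 31.3 CPM in wild type. Both were thus higher in *tdp-1* without overlap, as were 13.6% of all genes, and neither was called with or without the block. *nas-20*, *nas-37* and *dpy-31* overlapped between *tdp-1* and wild type. *nas-11* had its highest mean in *tdp-1; ceh-14* (92.2 ± 15.8 CPM) and its lowest in *fust-1; ceh-14* (54.9 ± 3.96 CPM), with 67.5 ± 5.11 CPM in wild type. *nas-20* ran from 32.1 to 89.96 CPM within *fust-1* alone, a spread that covers the means of the other genotypes. The BMP-1 and tolloid homologue *nas-39* had its lowest mean in *tdp-1; ceh-14* (4.61 ± 2.02 CPM) and its highest in the other double mutant (5.74 ± 0.512). *hch-1*, the hatching enzyme, had 12 counts over 8 libraries and none in *tdp-1*. Among the 38 members with counts, 23 had their highest genotype mean in *tdp-1*. The share of all genes with their highest mean in *tdp-1* is not given here, so this count is not read as a trait of the astacins.

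**Figure D2:**
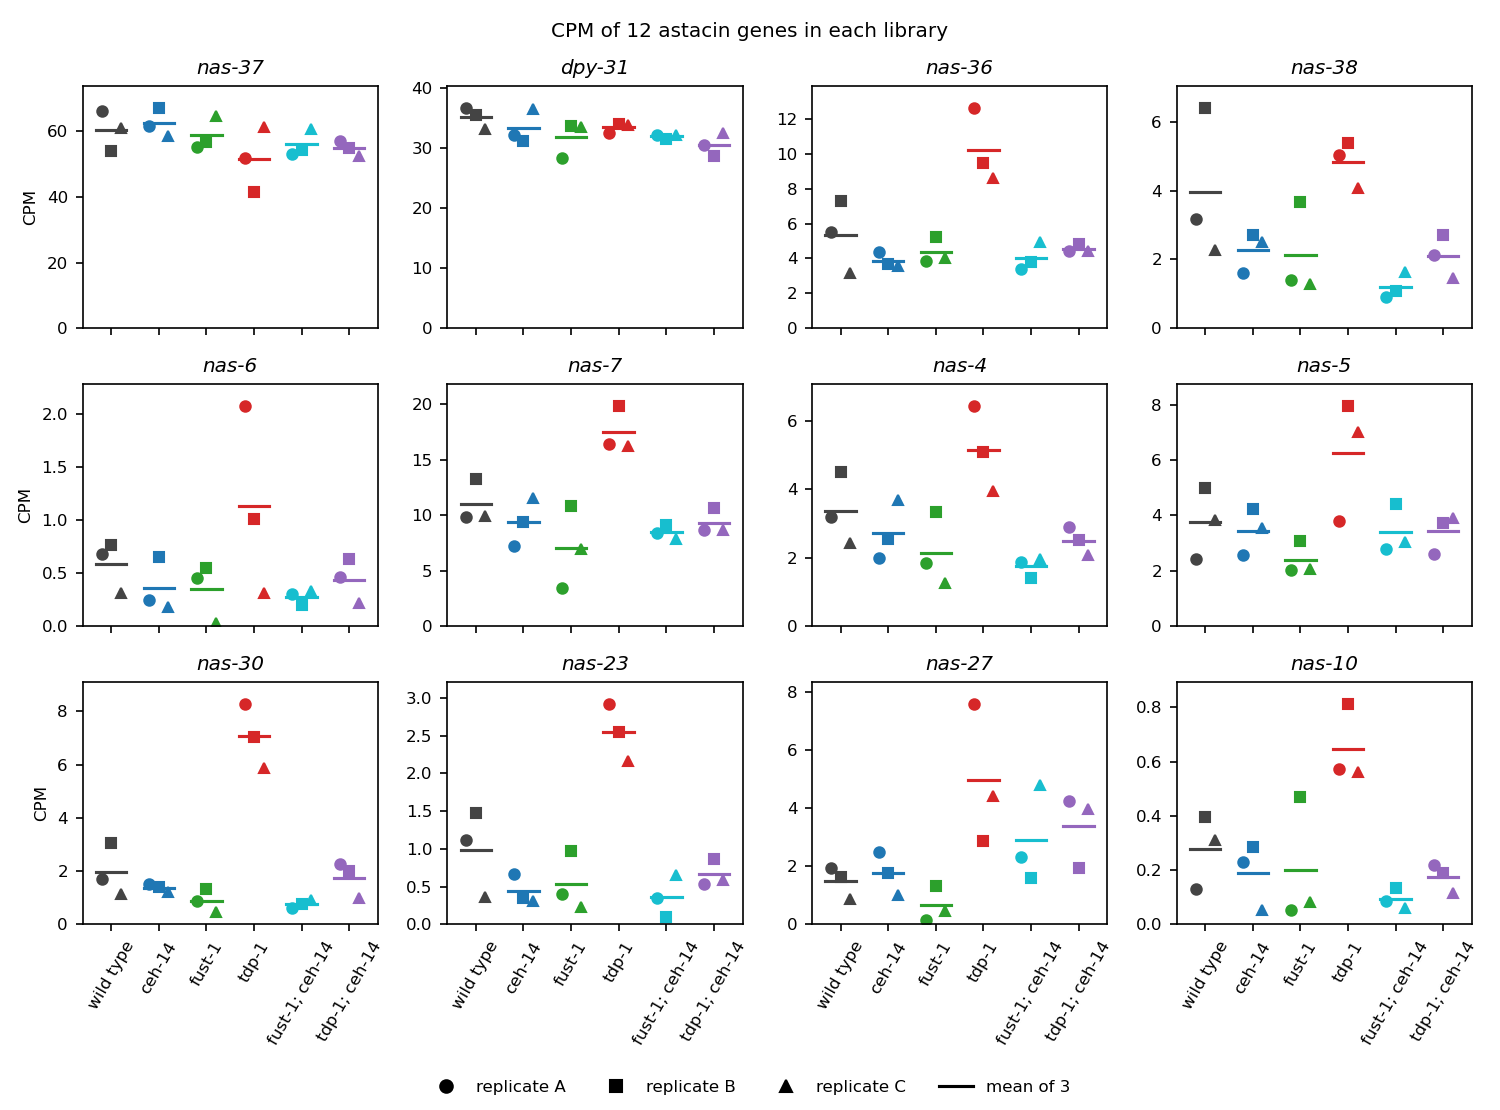
CPM of 12 astacin genes in each library, with genotypes on the horizontal axis, replicate letters as point shapes and lines at the mean of 3 libraries; each vertical axis starts at 0 and has its own scale. *nas-37* and *dpy-31* stay level across genotypes, and the 3 *tdp-1* libraries of *nas-36*, *nas-7*, *nas-30* and *nas-23* lie above all others.

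Astacin genes were tested in 11 comparisons with edgeR's quasi-likelihood test, and a gene is called at a Benjamini-Hochberg adjusted p under 0.05 over all genes tested. After the filter on low counts, 29 to 32 members were tested in each. In this fit, which had no block for the replicate letter, *tdp-1; ceh-14* against *tdp-1* was the only comparison with called astacins. With the block, 11 members were called lower there (5.37% of all genes). The blocked fit also called 5 higher in *tdp-1* against wild type (4.44%) and 1 lower in *tdp-1; ceh-14* against wild type (1.37%). Without the block, 5 of 31 members tested were lower in *tdp-1; ceh-14* than in *tdp-1* and none was higher, where 2.83% of all genes tested were called lower. On the log2 scale *nas-23* fell by 1.89 (SE 0.28, adjusted p = 0.0146), *nas-30* by 1.99 (SE 0.33, adjusted p = 0.0205), *nas-36* by 1.14 (SE 0.20, adjusted p = 0.0268), *nas-7* by 0.88 (SE 0.17, adjusted p = 0.0377) and *nas-10* by 1.87 (SE 0.37, adjusted p = 0.0381). These members include the molting protease NAS-36 and the pharyngeal NAS-7.

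More members pointed the same way without being called. In this comparison 26 of 31 members had a negative log2 fold change, with a median of -0.83 beside 0.02 over all genes. The groups did not overlap for 14 of the 31, all lower in the double mutant, where 16.5% of all genes did so. Once the letter entered the fit as a block, 11 members were called lower, where 5.37% of all genes were, and *nas-1*, *nas-4*, *nas-14*, *nas-15*, *nas-29* and *nas-38* joined the 5. DESeq2 called 10 lower (5.44% of all genes). With the block *nas-38* had a log2 fold change of -1.20 (adjusted p = 0.0170) and *nas-4* -1.01 (0.0278). *nas-37* (0.12 without the block) and *dpy-31* (-0.10) were not called, and *nas-3* had the highest log2 fold change, 0.90.

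The number of calls changed when single libraries were left out, which also leaves fewer libraries for the fit. The share of all genes called in these smaller fits is not given here, so the counts are not read as a trait of the astacins or of a library. Without replicate A or B of *tdp-1* no astacin was called, without replicate C of *tdp-1* or B of *tdp-1; ceh-14* 1 was, without replicate C of *tdp-1; ceh-14* 2 were, and without replicate A of *tdp-1; ceh-14* 8 were. Over these fits the log2 fold change of *nas-30* stayed between -2.21 and -1.71 and that of *nas-36* between -1.26 and -0.98. The adjusted p of *nas-23* was at most 0.0590 and that of *nas-10* at most 0.168.

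Against wild type, *tdp-1* had 0 called astacins of 31, where 0.128% of all genes were called, and DESeq2 called 5 higher (3.73% of all genes). At an unadjusted p under 0.05, 8 members were higher and 0 lower in *tdp-1*, where 10.3% of all genes were higher. The groups did not overlap for 9 members, all higher in *tdp-1*, where 13.6% of all genes were higher without overlap. With the letter as a block 5 members were called higher, where 4.44% of all genes were. These were *nas-30* (log2 fold change 1.91, adjusted p = 0.00377), *nas-27* (1.67, 0.0102), *nas-23* (1.41, 0.0267), *nas-36* (0.98, 0.0317) and *nas-7* (0.66, 0.0427). Without the block their adjusted p ran from 0.104 for *nas-30* to 0.177 for *nas-36*. Leaving out replicate B of wild type gave 2 calls in the fit without the block, where the share of all genes called is not given here.

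*nas-30*, *nas-23*, *nas-36* and *nas-7* appear in both lists, and both comparisons use the same *tdp-1* libraries. Between *tdp-1; ceh-14* and wild type, which share none of them, *nas-36* had a log2 fold change of -0.23, *nas-30* -0.17, *nas-23* -0.59 and *nas-7* -0.23, none of them called (adjusted p of 0.670 to 0.885 in edgeR).

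**Figure D3:**
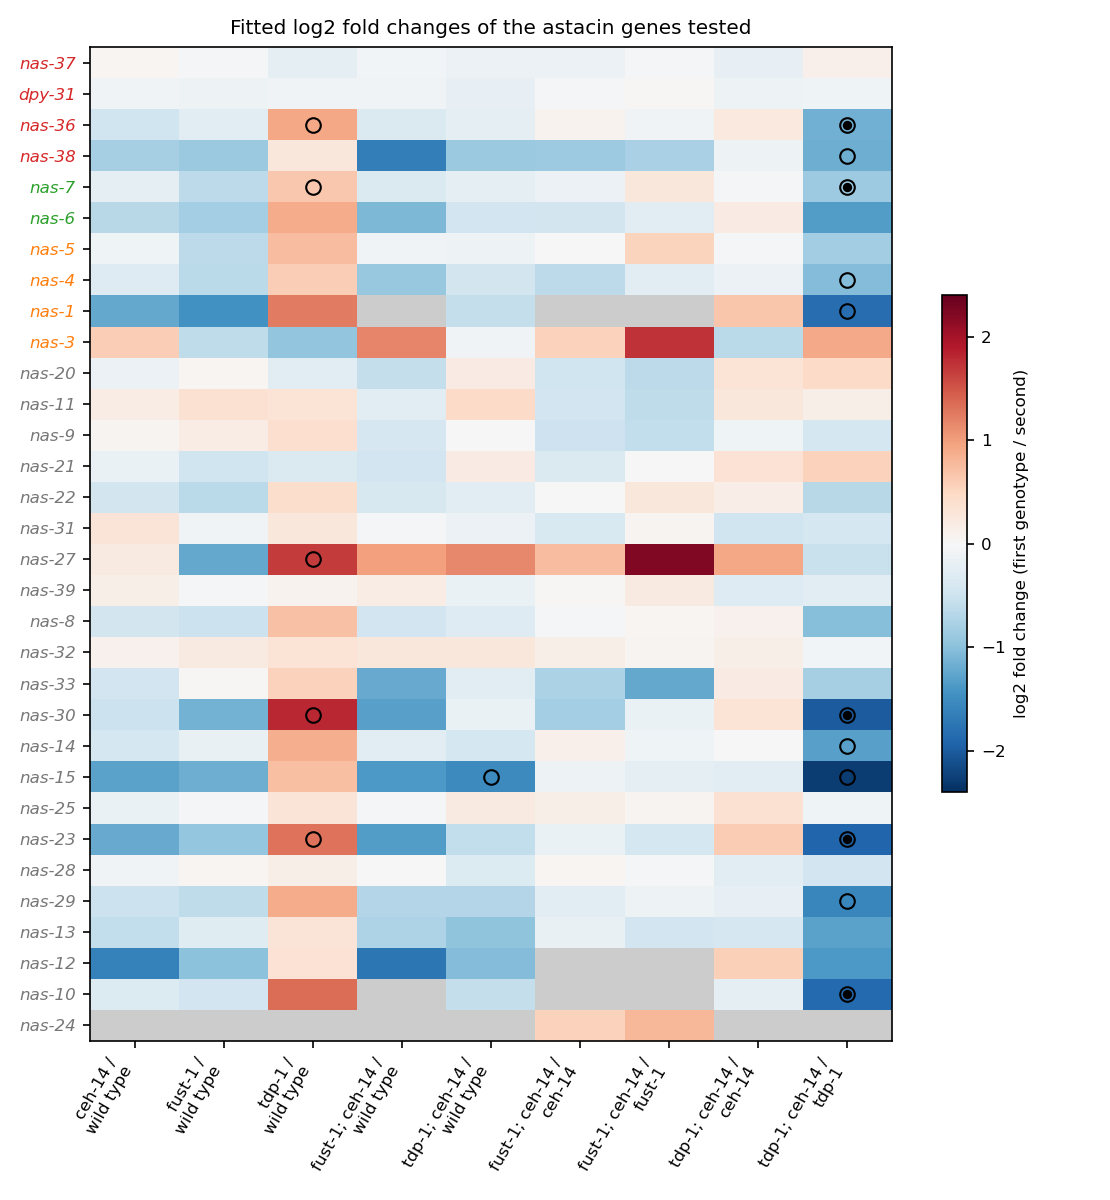
Fitted log2 fold changes of the 32 astacin genes tested in at least 1 comparison, with comparisons as columns (first genotype over second) and genes as rows, coloured by role as in the plot of levels. Filled dots mark the 5 calls of the fit without a block, all in *tdp-1; ceh-14* against *tdp-1*, rings mark the calls of the blocked fit, and grey cells were not tested.

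The remaining comparisons gave 0 called astacins in edgeR without the block. *tdp-1; ceh-14* against wild type (0.12% of all genes called) had 2 members higher and 1 lower at an unadjusted p under 0.05, which 7.72% of all genes reached, and the block called *nas-15* lower, where it called 1.37% of all genes lower (-1.56, adjusted p = 0.0207). *fust-1; ceh-14* against wild type had 1 higher and 7 lower at an unadjusted p (0.351% of all genes called, and 5.49% lower at an unadjusted p). In that comparison 10 of 29 members lay lower without overlap, where 10% of all genes did, and the median log2 fold change was -0.39 beside -0.01 for all genes. DESeq2 called *nas-38* (-1.65, adjusted p = 0.00950) and *nas-33* (-1.20, 0.0329) lower there, where it called 0.982% of all genes lower, while edgeR gave adjusted p = 0.316 and 0.296. *nas-12* had the largest fold change of that comparison among members without overlap, -1.74 (SE 0.35, adjusted p = 0.159 in edgeR).

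*ceh-14* against wild type had 0 higher and 1 lower at an unadjusted p (0.092% of all genes called, and 2.89% lower at an unadjusted p), and that member was *nas-12*, at 0.177 ± 0.0296 CPM against 0.544 ± 0.0791 (log2 fold change -1.63, SE 0.33, adjusted p = 0.287). *nas-12* rested on few reads, with 62, 22 and 9 counts in wild type (replicates A, B, C) and 7, 18 and 8 in *ceh-14*. Its level was also under the lowest wild-type value in every library of *fust-1* (-0.99, adjusted p = 0.9997) and of both double mutants, comparisons that share the wild-type libraries. The same held for *nas-8*, at 2.44 to 2.72 CPM in wild type and 1.54 to 2.15 in *ceh-14* (-0.43, SE 0.22, adjusted p = 0.99988), with -0.51 for *fust-1* (adjusted p = 0.9997). Of all genes, 4.67% lay lower than wild type without overlap in *ceh-14* and 3.86% did in *fust-1*. That share was 10% for *fust-1; ceh-14*, while it was 5.01% for the other double mutant. In *tdp-1* both genes overlapped wild type with higher means. These were 0.697 CPM against 0.544 for *nas-12* and 4.17 CPM against 2.55 for *nas-8*. *fust-1* against wild type had no member past an unadjusted p of 0.05 (0.0184% of all genes called, and 2.05% past the unadjusted p), with a median log2 fold change of -0.47 beside 0.02 for all genes.

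*fust-1; ceh-14* against *ceh-14* had 0 higher and 6 lower at an unadjusted p (0.0308% of all genes called, and 1.33% lower at an unadjusted p), of which *nas-30* had the largest fold change without overlap (-0.81, adjusted p = 0.99999). Against *fust-1* the same double mutant had 2 higher and 3 lower (0.0494% called, and 5.04% at an unadjusted p), with *nas-27* at 2.22 (SE 0.77, adjusted p = 0.832) and *nas-3* at 1.74 (0.48, 0.823). *tdp-1; ceh-14* against *ceh-14* had none (0.00594% called, and 9.09% at an unadjusted p), with a median of -0.02 beside 0.06 for all genes, and among members without overlap *nas-31* had the largest fold change (-0.48, adjusted p = 0.437). DESeq2 called no astacin in these 5 comparisons, where it called 0.828%, 0.136%, 0.15%, 0.464% and 0.185% of all genes in the order given, nor in *tdp-1; ceh-14* against wild type (0.67%).

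Interaction tests ask whether a double mutant departs from the summed log2 effects of its single mutants. In the test of *tdp-1* with *ceh-14*, 0 of 32 members were called (0.0405% of all genes were), 2 were lower at an unadjusted p under 0.05 (*nas-30* and *nas-7*, where 3.71% of all genes were lower) and 26 had a negative estimate, with a median of -0.58 beside 0.03 for all genes. The estimate was -1.46 for *nas-30* (SE 0.51, adjusted p = 0.445 in edgeR) and -0.64 for *nas-7* (SE 0.29, adjusted p = 0.445). In the test of *fust-1* with *ceh-14*, 0 of 32 were called (0.0237% of all genes were, and 1.83% at an unadjusted p), with *nas-27* higher (2.04) and *nas-11* lower (-0.77) at an unadjusted p under 0.05. DESeq2 called no astacin in either (0.351% and 0.0644% of all genes).

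Other genes of the cuticle and of matrix remodelling were measured beside the astacins. Of a molting cycle list of 20 genes without astacins, 15 were called lower in *tdp-1; ceh-14* than in *tdp-1* and none higher, where 2.83% of all genes were called lower. The list had 19 negative log2 fold changes and a median of -2.04. They include *mlt-8* (-1.93, adjusted p = 0.00798) and *lin-42* (-2.51, 0.00877), the worm counterpart of the clock gene *period*, together with *noah-1* (-2.43, 0.0283), a component of the apical matrix, and *mlt-10* (-2.26, 0.0395). Of 19 cuticle collagen and furrow genes tested, 15 were called lower and 18 had a negative log2 fold change, with a median of -2.01. *sqt-3*, the collagen processed by DPY-31, stood at 149 to 178 CPM in *tdp-1*, 33.5 to 101 in wild type and 19.2 to 40.7 in *tdp-1; ceh-14* (log2 fold change -2.32 against *tdp-1*, adjusted p = 0.00861). *dpy-31* itself stood at 28.8 to 32.45 CPM in *tdp-1; ceh-14*, 32.47 to 34.04 in *tdp-1* and 33.2 to 36.7 in wild type. The double mutant thus lay lower than each without overlap, as did 16.5% and 5.01% of all genes, and *dpy-31* was not called. The collagen *dpy-17* was not called (0.76, adjusted p = 0.157).

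Against wild type, no gene of the molting cycle or collagen list was called in *tdp-1* without the block, where 0.128% of all genes were. With the block 10 and 12 were called higher, where 4.44% of all genes were. Of 24 other matrix proteases and inhibitors, 16 had a negative log2 fold change between *tdp-1; ceh-14* and *tdp-1*. Of these, 4 were called lower, where 2.83% of all genes were, namely the ADAMTS proteases *adt-1* (-2.39, adjusted p = 0.0333) and *adt-3* (-1.08, 0.0441), the matrix metalloprotease *zmp-6* (-2.04, 0.00861) and the inhibitor *mlt-11* (-2.66, 0.0213), which is also in the molting list. *toh-1*, a tolloid homologue outside the naming rule, was at -0.71 (adjusted p = 0.0966). The molting list summed to 314 to 545 CPM in *tdp-1*, 140 to 266 in wild type and 95.7 to 159 in *tdp-1; ceh-14*. Its part in the astacin differences was not tested.

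Of the marker lists for other tissues in *tdp-1; ceh-14* against *tdp-1*, epidermis and glia each had 1 gene called lower (*che-14* and *ptr-10*) and pharynx, intestine, germline and yolk had none. Of all genes, 2.83% were called lower. With the block, 2 genes each of epidermis, glia and pharynx and 1 of intestine were called lower, where 5.37% of all genes were. The block called 1 of intestine higher (1.93% of all genes). The 10 intestine markers summed to 6054 to 7102 CPM in *tdp-1*, above wild type (4074 to 4995) and *tdp-1; ceh-14* (3674 to 5665) without overlap. Against wild type, 9 of these markers had a positive log2 fold change in *tdp-1*, with 0 called without the block (0.128% of all genes). With the block 2 were called higher, where 4.44% of all genes were. The 7 epidermis markers summed to 240.2 to 267 CPM in *tdp-1*, which overlapped wild type (223 to 272) and lay above *tdp-1; ceh-14* (119 to 233). The epidermis markers include *dpy-7*, which is also in the collagen and furrow list. The part of these tissue markers in the astacin differences was not tested.

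Because the molting list differed between *tdp-1; ceh-14* and *tdp-1*, 7 members were set against its mean log2 CPM across the 18 libraries. These include the libraries that gave that difference. P-values from 100000 permutations were adjusted over these 7 relations. The permutations shuffle the 18 libraries without regard to genotype, and the *tdp-1* libraries had the highest list values. Replicates of a genotype thus count as independent, and these p-values do not separate a relation from a difference between genotypes. *nas-36* followed the list with r = 0.83 (permutation p = 2e-05, adjusted p = 9.33e-05) and rho = 0.80 (permutation p = 0.00015, adjusted p = 0.00035). *nas-38* followed it with r = 0.81 (permutation p = 4e-05, adjusted p = 9.33e-05) and rho = 0.86 (1e-05, the smallest these permutations can give, adjusted p = 7e-05). *nas-4* followed it with r = 0.83 (permutation p = 3e-05, adjusted p = 9.33e-05) and rho = 0.80 (0.00015, 0.00035).

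Over all 18 libraries the pharyngeal pair had a lower r and rho than *nas-36*, *nas-38* and *nas-4*. *nas-6* had r = 0.72 (permutation p = 0.00071, adjusted p = 0.00124) and rho = 0.76 (0.0005, 0.000875), and *nas-7* had r = 0.66 (permutation p = 0.00279, adjusted p = 0.00391) and rho = 0.65 (0.00467, 0.00654). *dpy-31* had r = 0.25 (permutation p = 0.311, adjusted p = 0.363) and rho = 0.36 (0.145, 0.169), and *nas-37* had r = -0.22 (permutation p = 0.386, adjusted p = 0.386) and rho = -0.05 (0.836, 0.836). The family held both members whose level followed the molting list and 2 well-expressed cuticle and molting members for which no such relation was detected over all 18 libraries. The order of the members differed between settings. Without replicates A and C of *tdp-1*, *nas-6* had the highest r of the members set against the list (0.85). As deviations from genotype means, r was 0.60 for *nas-6*, 0.58 for *nas-36* and 0.17 for *nas-7*.

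Without the 2 libraries farthest from the median of the list (replicates A and C of *tdp-1*), r was 0.73 for *nas-36*, 0.80 for *nas-38*, 0.81 for *nas-4*, 0.85 for *nas-6*, 0.53 for *nas-7*, 0.26 for *dpy-31* and -0.30 for *nas-37*. Within the letters A, B and C, with 6 libraries each, r was 0.997, 0.82 and 0.80 for *nas-36*, 0.94, 0.97 and 0.80 for *nas-38*, 0.97, 0.99 and 0.70 for *nas-4*, 0.94, 0.89 and 0.73 for *nas-6* and 0.77, 0.79 and 0.77 for *nas-7*. In the same order of letters it was 0.37, 0.70 and -0.04 for *dpy-31* and -0.17, -0.42 and 0.08 for *nas-37*. Within letter C no adjusted p of r from the exact permutation test was below 0.183. The 3 *tdp-1* libraries have the highest list values (3.56 to 4.42, against at most 3.33 elsewhere), so genotype enters these relations. Taking each library as its deviation from its genotype mean left r = 0.72 and rho = 0.67 for *nas-38*, 0.66 and 0.54 for *nas-4*, 0.60 and 0.59 for *nas-6*, 0.58 and 0.49 for *nas-36*, and 0.17 and 0.04 for *nas-7*. These are given as a description with no p, since the 18 deviations are not independent of each other. The permutations over all 18 libraries likewise take no account of genotype or letter.

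**Figure D4:**
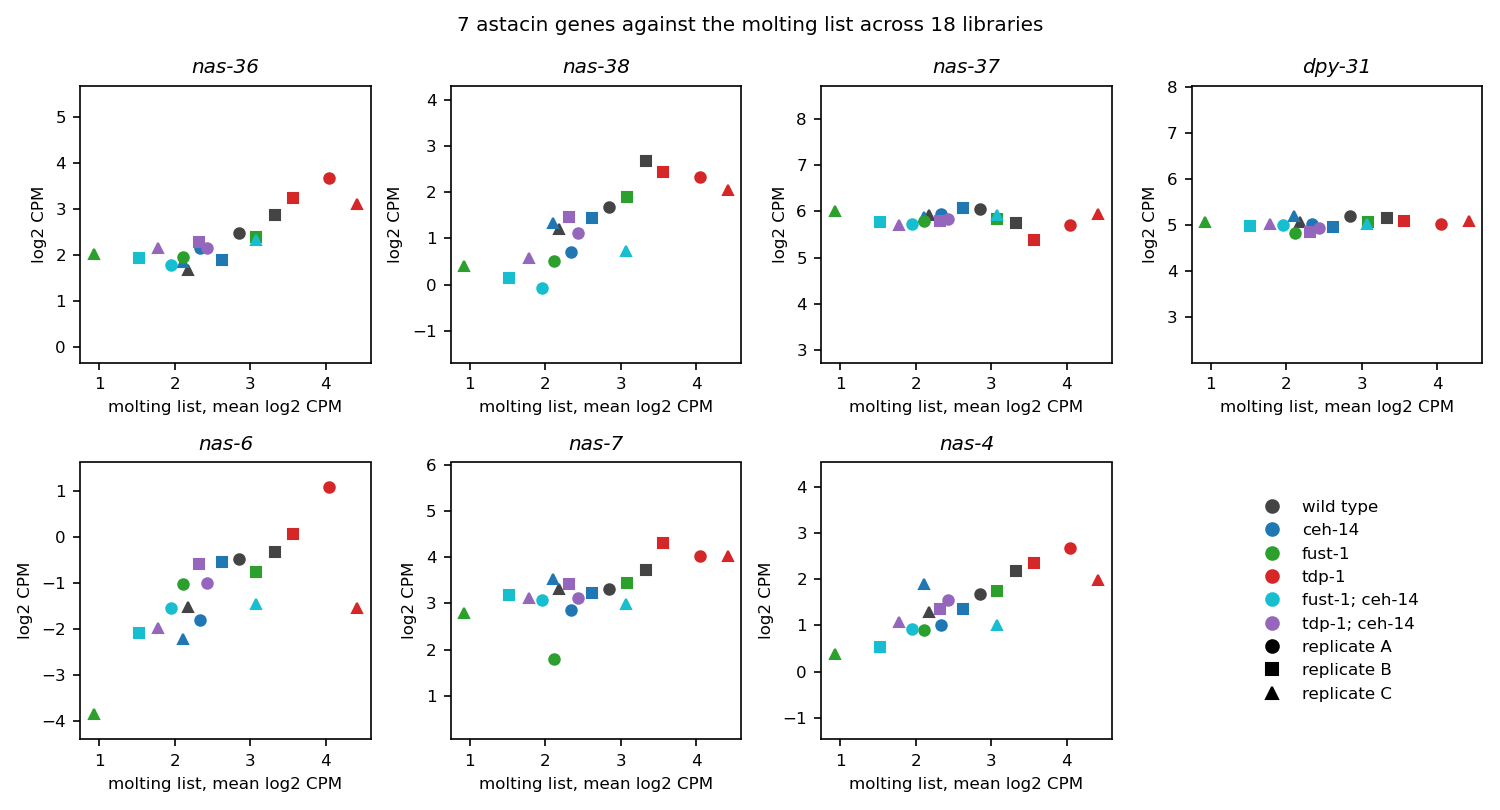
log2 CPM of 7 astacin genes against the mean log2 CPM of the molting list, 1 point per library, coloured by genotype and shaped by replicate letter; every vertical axis spans the same number of log2 units. *nas-36*, *nas-38*, *nas-4*, *nas-6* and *nas-7* rise with the list (r from 0.66 to 0.83), and *nas-37* and *dpy-31* run nearly flat (-0.22 and 0.25).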

How the data were processed

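Poly(A) RNA of whole L4 animals was sequenced in 18 libraries, 3 biological replicates of each of 6 genotypes. The deposited values are read counts per gene that the authors made with HTSeq from reads mapped to WBcel235 with STAR, whole numbers without normalization. Records assigned to no gene made up 8.34% to 15.7% of each file and were left out. The strand setting of the counting is not given in the sources used here, and 15 members share exon bases with another gene in the annotation of that build (12 of them on the opposite strand). The members and gene lists were chosen with earlier results of these data known. No sequence of a member was used here.

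Every comparison was fitted on the libraries of its genotypes with edgeR 4.0.16 in R 4.3.3 (filterByExpr, TMM, quasi-likelihood F test, Benjamini-Hochberg adjustment over all genes tested), after a test on simulated data. Levels are CPM, with TMM factors from all 18 libraries together, and log2 levels use a prior count of 2. Correlations used 100000 two-sided permutations, or all orders where 6 libraries were taken. Replicates differed by a chi-square of at least 24.0 per degree of freedom, so no library repeated another. Alternatives were DESeq2 1.42.0, its size factors in edgeR, no filter, all 18 libraries in one fit, each library left out, and the replicate letter as a block. Leaving out both libraries of a letter was added after seeing the data.

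Replicates share letters in the labels, and what a letter marks is not given in the sources used here. Deviations from genotype means over 17560 genes correlated between same-letter libraries by -0.173 to 0.655, and by more than 0.1 in all 3 letters for 10 of 15 genotype pairs. The letter was therefore taken to pair *tdp-1*, *tdp-1; ceh-14* and wild type with each other, but not *fust-1; ceh-14* with wild type, *ceh-14* or *fust-1*. The main fits were planned without a covariate and ignore this pairing, so the blocked calls are given beside them. The edgeR p-values set a difference between genotypes against the spread between their libraries, moderated over genes. With 3 libraries a genotype, that spread covers only these samples.

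The rule for named genes took *nas-1* to *nas-7*, *nas-36* to *nas-39*, *dpy-31* and *hch-1*, every member called in a comparison, the 3 with the highest mean CPM and, per comparison, the 2 with the largest fold change among members whose groups did not overlap. The other members named were picked with their values in view, as were *che-14* and *ptr-10*.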

Additional observations from a re-analysis of the deposited data

How the results depend on the processing

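Counts of called astacins stayed at their reported values under DESeq2's size factors in edgeR for all 11 comparisons. In *tdp-1; ceh-14* against *tdp-1*, where 5 were called, DESeq2 called 10, the replicate block 11 and the fit of all 18 libraries 2. Leaving out 1 library gave 0 to 8, and leaving out both A, both B or both C libraries gave 0, 0 and 1. In *tdp-1* against wild type, where 0 were called, DESeq2 and the replicate block each called 5, the fit without a filter called 2, and leaving out 1 library gave 0 to 2. DESeq2 called 2 in *fust-1; ceh-14* against wild type, and the replicate block called 1 in *tdp-1; ceh-14* against wild type. The block changed no other count of calls. Shares of all genes called are given above only for the main fit, the replicate block and DESeq2. For the other fits they are not given here, so those counts are not read as a trait of the astacins. The cause of these differences was not tested.

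Relations with the molting list fell above an adjusted p of 0.05 within letter B for *nas-36* (r = 0.82) and *nas-7* (0.79), within letter A for *nas-7* (0.77) and within letter C for *nas-36* (0.80), *nas-38* (0.80), *nas-4* (0.70), *nas-6* (0.73) and *nas-7* (0.77), in each case with 6 libraries. For *nas-7*, deviations from the genotype mean gave 0.17. The sign turned for *nas-37* within letter C (0.0774) and in deviations (0.16), and for *dpy-31* within letter C (-0.0393) and in deviations (-0.057), both without a relation in the full set. Replacing TMM by DESeq2's size factors moved the median of all genes by up to 0.0292 (log2). Members under 0.1 CPM, *nas-10* with 2 to 32 counts a library and *nas-12* with 4 to 73 are limited by depth.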

Other observations

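A few members differed between replicate letters. *nas-25* stood at 0.795 to 1.57 CPM in the 6 A libraries, above every B library (0.280 to 0.643 CPM) and every C library (0.310 to 0.563 CPM). *nas-17* had 54 counts in A libraries, 0 in B and 23 in C, and the pseudogene *nas-40* had 13, 1 and 3. *nas-1* had 290, 114 and 26 counts in A, B and C, with 162 of them in replicate A of *tdp-1*, the genotype with its highest mean (1.21 ± 1.48 CPM). *myo-2* stood at 86.6 to 134 CPM in the same A libraries, and its part in these values was not tested.

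*nas-20* and *nas-11*, the most abundant astacins per kilobase, were at their highest in *fust-1* replicate C (89.96 and 111 CPM), the library with the lowest molting list value (0.93 mean log2 CPM) and with 2.67 CPM of *ceh-14*. In replicate A of *fust-1* the same genes stood at 32.1 and 64.9 CPM.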
